A study of Drosophila melanogaster with 3 samples.

Results

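The genes described here are 10 Drosophila melanogaster genes of germ plasm and germline development: osk, nos, vas, gcl, pgc, aub, piwi, tud, bam and bgcn. They were taken by name, and all 10 were found among the 13945 protein-coding genes annotated on the 6 chromosome arms, nos under its current symbol nanos. The measurements are peak lists from chromatin immunoprecipitation sequencing (ChIP-seq) of CG17359, a fly protein without an established function. The flies stably carried a transgene coding for CG17359 with green fluorescent protein (GFP) at its C terminus, and the antibody was directed against GFP. Chromatin came from whole embryos collected from 0 to 14 h of age, in 3 biological replicates of 1 group. No second stage, genotype or untagged strain was among the samples analysed here, and no fit of one condition against another was possible. Germ cells were not separated from the soma, so a peak cannot be assigned to either.

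Germ plasm is the cytoplasm at the posterior pole of the egg that directs the cells taking it up to become germ cells. Oskar protein starts its assembly and brings in Vasa, Tudor and Aubergine, and the germ plasm holds mRNAs such as nos, gcl and pgc, whose products act in the forming germ cells. Piwi and Aubergine carry small RNAs that silence transposons, and Bam with its partner Bgcn drives the daughters of germline stem cells into differentiation.

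The deposit gave 5 peak lists: 30000 peaks for each replicate, 30000 for the replicates pooled, and 7287 in the thresholded list that the authors derived from the others by an irreproducible discovery rate (IDR) procedure. Each peak has a summit, the base of strongest enrichment, and a signal value set by the authors, used here only to rank peaks within a list, with rank 1 the strongest. The lists carry no read counts, so sequencing depth is unknown. A summit was counted for a gene if it lay in the gene or within 2 kb of either end, and called a promoter summit if it lay within 500 bp of an annotated start site of that gene.

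Of the 10 genes, 6 had a thresholded summit in the gene or 2 kb either side, namely nos, vas, gcl, piwi, tud and bgcn. Over all protein-coding genes the share was 41.8%, and over the 5634 genes in the same range of length (2071 to 12656 bp) it was 47.7%. A promoter summit in the thresholded list was present at 5 of 10 (nos, vas, gcl, piwi and bgcn), against 23.9% of all protein-coding genes. With 10 genes chosen by name, these counts are a description, and no test was run. In the whole pooled list the window count was 8 of 10 against 64.3%, while the promoter count stayed at 5 of 10, close to the 46.8% of all protein-coding genes. All 3 replicate lists had a summit at 8 of 10 genes, against 60.3%. The other 2 genes, pgc and aub, had no summit in any of the 5 lists, which was so for 24.6% of protein-coding genes and 17.4% of those of like length.

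**Figure D1:**
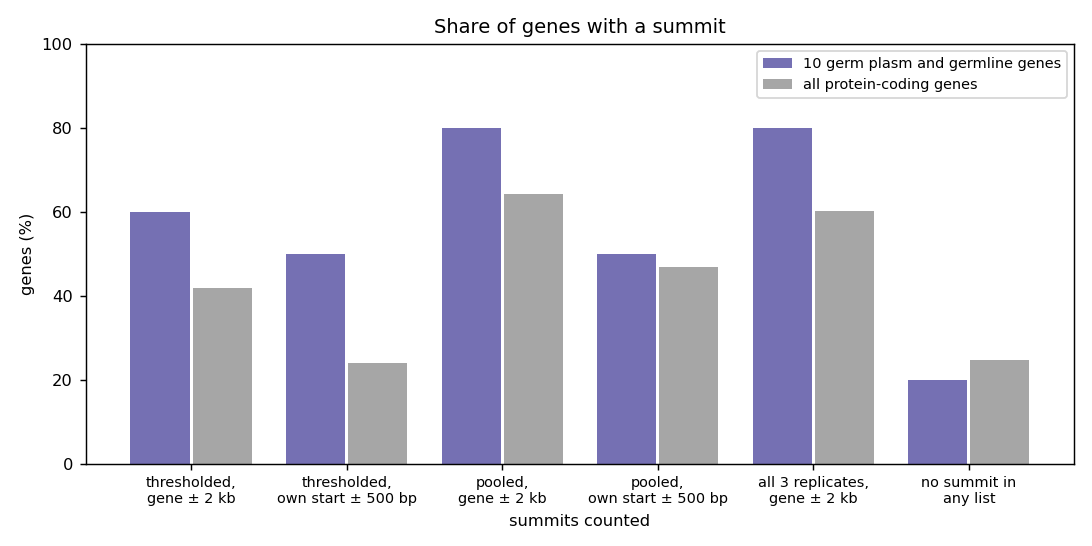
Bars give the percentage of genes with a summit, for the 10 germ plasm and germline genes (purple) and for all 13945 protein-coding genes (grey), by peak list and by where the summit lay. The bars lie farthest apart for thresholded promoter summits (5 of 10 genes against 23.9%) and closest for pooled promoter summits (5 of 10 against 46.8%).

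When each replicate was cut to its 7287 strongest peaks, promoter summits were found at 5 of the 10 genes in replicate 1 and at 6 in replicates 2 and 3, a mean of 5.67 ± 0.577 (SD, n = 3). The corresponding share of all protein-coding genes was 24.4% ± 0.511 (SD, n = 3). The gene added in replicates 2 and 3 was tud.

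The 6 genes held 8 thresholded summits, which is 0.865 per 10 kb of gene and flank against 0.720 over all protein-coding genes. All 8 overlapped a peak in each of the 3 replicate lists, as did 97.8% of all thresholded peaks. In the pooled list the 10 genes held 38 summits (4.11 per 10 kb against 2.66), of which 24 overlapped a peak in 3 replicates, 11 in 2 and 3 in 1. Neighbouring pooled summits could overlap the same replicate peak, as at tud and vas. The same split over all pooled peaks is not given here, so this one has no background beside it. A start site of some other gene lay within 500 bp of 5 of the 8 thresholded summits (62.5%). Over all pairs of a protein-coding gene and a thresholded summit in its window, that share was 42.7% (4678 of 10945). Only bgcn had a promoter summit with no start site of another gene within 500 bp.

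**Figure D2:**
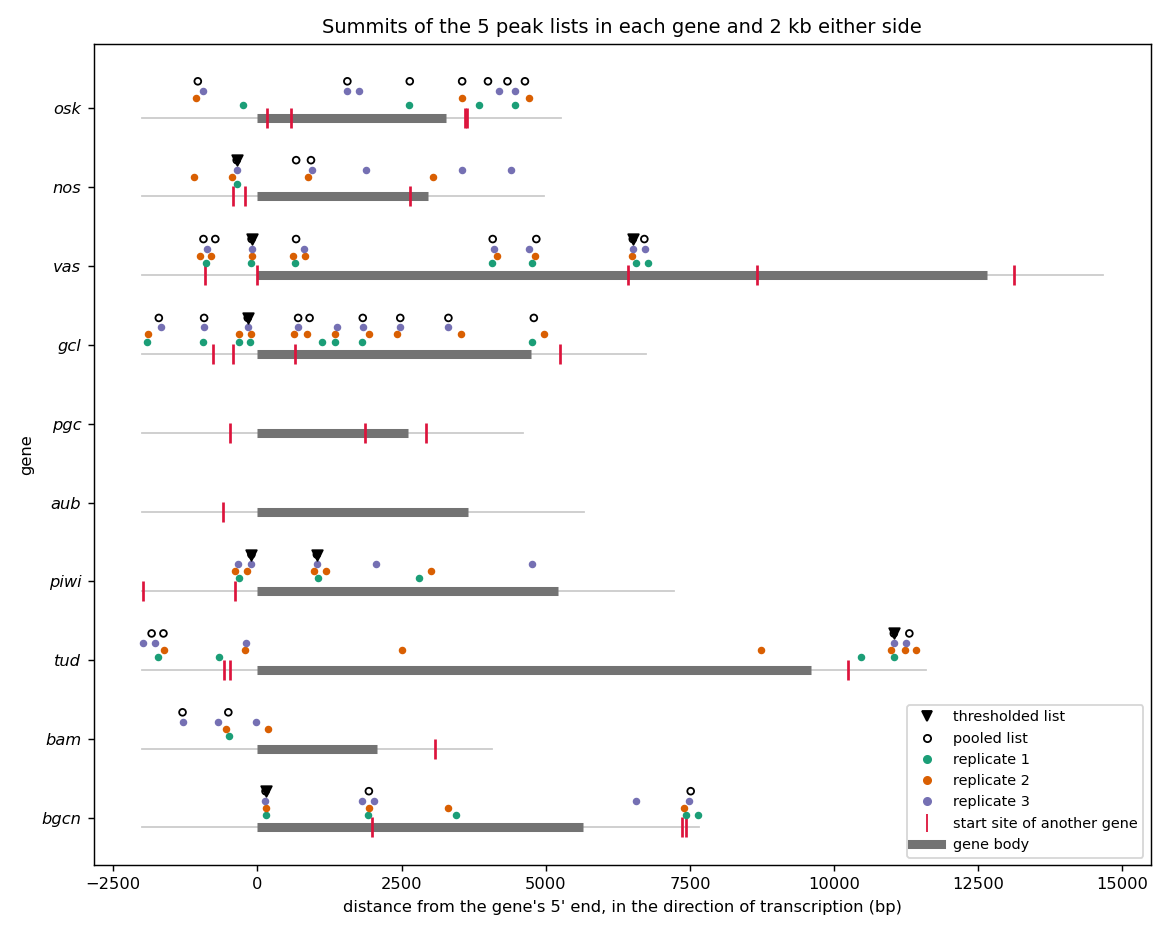
Each row is 1 gene, drawn from its 5' end in the direction of transcription (bp), with the gene body as a thick bar, 2 kb either side as a thin line and start sites of other genes as red ticks. Triangles are thresholded summits, open circles pooled summits and coloured dots the summits of replicates 1 to 3. The rows of pgc and aub are empty, and bgcn shows all lists stacked at 1 place near its start.

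Among the genes that build the germ plasm, vas was the one with a clear promoter peak. It encodes an RNA helicase of the DEAD-box family that is a core component of germ granules. The thresholded peak (chromosome 2L, 15061483 to 15061589, dm6, plus strand gene) had its summit 100 bp upstream of the vas start site and a signal value of 393.0, rank 3589. The overlapping peaks of replicates 1, 2 and 3 ranked 2915, 3730 and 4233, with summits 116, 101 and 92 bp upstream, so the replicates placed the site within 24 bp of each other. That start site is also the annotated start of solo, a gene for a meiotic cohesion protein that overlaps vas, and the peak cannot be given to one rather than the other.

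A second thresholded summit inside vas (15068085 to 15068192, signal value 444.9, rank 3075) lay in a vas intron, 6510 bp from the vas start. It stood 88 bp upstream of a start site of vig, a gene nested in vas on the opposite strand that encodes an RNA-binding protein. Its ranks in replicates 1, 2 and 3 were 3161, 4463 and 2615, and in every replicate the summit was within 136 bp of that vig start. The nested gene's start was therefore the nearest to this site, and the replicate ranks of both sites overlapped. The pooled list added 6 weaker summits in the vas window, of ranks 7322 to 20856. One of them lay 35 bp inside the upstream neighbour TfIIS, which encodes a transcription elongation factor, at rank 8794.

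The sequences at both sites, on the vas strand and running 60 bases to each side of the summit, are shown to compare the shared vas and solo start with the nested vig start. Capitals mark matches on either strand to 8 short elements. The replication-related element was searched as TATCGATA and the BEAF-32 core, which is part of it, as CGATA. Motif 1 was searched as GGTCACAC, the GAGA factor site as GAGAG and the TATA box as TATAAA. The Zelda site was searched as CAGGTAG, the E-box as CAGCTG, with the nuclear receptor site searched as TGACCT. Beyond the BEAF-32 core these elements do not contain one another.
vas promoter, chr2L:15061496-15061616: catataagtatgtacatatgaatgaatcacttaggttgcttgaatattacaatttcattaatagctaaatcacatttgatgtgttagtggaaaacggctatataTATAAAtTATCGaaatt
vig start within vas, chr2L:15068106-15068226: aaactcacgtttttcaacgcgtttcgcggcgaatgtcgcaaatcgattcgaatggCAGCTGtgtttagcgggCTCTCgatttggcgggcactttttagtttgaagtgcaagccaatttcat

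The promoter site was rich in A and T, with 31.3% GC over 201 bases, and carried TATAAA and, on the other strand, CGATA on the side of the start site. The site at vig had 41.3% GC and carried CAGCTG, whose last base was the summit. It also carried GAGAG, read from the other strand and centred 14 bases after the summit. The site at vig had TATAAA as well within 100 bp of the summit, outside the bases shown, so both sites held that element at this width. Within 100 bp of the summit, TATAAA was present in 37.2% of all thresholded peaks, CGATA in 25.4%, GAGAG in 21.3% and CAGCTG in 8.06%. Around the 5' ends of protein-coding genes those shares were 29.2%, 39.4%, 22.5% and 13.8%. Median GC was 34.3% over all thresholded summits and 41.3% over those 5' ends.

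Among genes for the Argonaute proteins of the PIWI clade, piwi had both its pooled summits in the thresholded list, and aub had no summit at all. The stronger piwi site (2L, 10986288 to 10986519, minus strand gene, signal value 469.8, rank 2870) lay in an intron, 1032 bp downstream of the only annotated start site. The nearest start site of another gene, CG12253, was 1418 bp away, so no neighbouring promoter lay close to it. The overlapping peaks ranked 2128, 5142 and 3611 in replicates 1, 2 and 3. Replicate 2 also had a stronger peak next to it, of rank 2620, with its summit 1187 bp downstream of the start site.

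The second piwi site (10987476 to 10987574, signal value 330.6, rank 4407) had its summit 103 bp upstream of the piwi start, in the 386 bp that separate piwi from the divergent CG12253. Its ranks were even, at 4226, 4035 and 4918 in replicates 1, 2 and 3, but its position was not. The summit lay 313 bp upstream of piwi in replicate 1, 181 bp in replicate 2 and 103 bp in replicate 3. Replicate 3 had a further peak of rank 5137 with a summit 333 bp upstream, and in replicate 2 a weak one (rank 18309) fell on the CG12253 start itself. Seen from CG12253, the replicate 1 summit lay 73 bp upstream, and the peaks of the 3 replicates therefore spanned the space between both starts.

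The piwi sequences are shown because the intronic site is the one without a neighbouring start and the other lies between 2 starts. They run 60 bases to each side of the summit on the piwi strand, and none of the 8 elements matched in either.
piwi intron, chr2L:10986328-10986448: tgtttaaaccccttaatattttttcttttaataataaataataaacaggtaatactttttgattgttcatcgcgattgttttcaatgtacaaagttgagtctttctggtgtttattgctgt
piwi promoter, chr2L:10987463-10987583: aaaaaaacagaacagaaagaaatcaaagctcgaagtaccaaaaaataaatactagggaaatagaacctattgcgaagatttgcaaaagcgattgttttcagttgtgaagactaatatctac

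Over 201 bases GC was 30.8% at the intronic site and 28.9% at the promoter site, both below the median of all thresholded summits. GAGAG occurred within 100 bp of the intronic summit, outside the bases shown.

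For aub, which acts in the germ plasm and in the piRNA cycle, the nearest summit in the thresholded and pooled lists lay 2649 bp outside the gene. It was 28 bp inside RpL9, a cytoplasmic ribosomal protein gene, with a signal value of 570.7 (rank 2220), and the replicates placed it 2647, 2657 and 2651 bp from aub. All 50-base stretches of the aub window occurred once on the arms, so no repeated stretch of that length was present. A weaker enrichment would not be seen, since the pooled list stops at a signal value of 51.5.

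The start site of osk, which encodes the protein that starts germ plasm assembly, had no thresholded or pooled promoter summit. A single weak promoter peak, 243 bp upstream, was in replicate 1 alone, at rank 22315 of 30000. The window held 7 pooled summits, of ranks 17567 to 25547, and 1 of the 7 overlapped a peak in all 3 replicates. The strongest of them (signal value 89.1) lay beyond the osk gene, 47 bp upstream of a start of ScsbetaA, a succinyl-CoA synthetase subunit gene. It ranked 7637 in replicate 2, while the overlapping peak of replicate 1 ranked 24115 and replicate 3 had none. The nearest thresholded summit was 3102 bp from osk and lay 128 bp from a start of pyd.

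For tud, which encodes a scaffold protein of germ granules with many Tudor domains, the thresholded summit was not at its own start. That peak (2R, 21194163 to 21194552, signal value 222.9, rank 6876 of 7287) lay past the end of the gene, 11036 bp from the tud start and 787 bp inside Lapsyn, which encodes a synaptic leucine-rich repeat protein. Replicates 1 and 2 ranked it 12305 and 10348, outside their 7287 strongest peaks, and replicate 3 ranked it 5813. At the tud start itself, replicate 2 had a summit 216 bp upstream (signal value 71.1, rank 6938) and replicate 3 one 196 bp upstream (149.5, rank 4284). The pooled list, and with it the thresholded list, had no peak there. Replicate 1 had a summit 669 bp upstream (rank 13883), 96 bp from the start of tRNA:Trp-CCA-2-6, one of the tRNA genes next to the tud promoter. Of 5924 peaks among the strongest of replicate 3 that overlapped one of the strongest of replicate 2, 71 (1.20%) overlapped no pooled peak. That share was not restricted to sites of like rank or to sites without a replicate 1 peak. It is therefore not the rate for sites like this one. In the tud window 99.6% of 50-base stretches were unique.

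The mRNAs that germ plasm localizes for use in germ cells gave 3 different pictures. For nos, a translational repressor that works with Pumilio, the thresholded peak (3R, 19156685 to 19157074, signal value 294.3, rank 5038) lay 358 bp upstream of its start. A start site of CG11779, on the opposite strand, was nearer, at 68 bp. CG11779 has further start sites, 221 bp upstream of nos and within it, and the summit fell inside a 5' UTR of CG11779. Replicates 1 and 3 put the summit 358 and 359 bp upstream of nos, and replicate 2 put it 435 bp upstream, 9 bp inside CG11779. The ranks were 7274, 6682 and 3909 in replicates 1, 2 and 3, so replicate 1 kept it just within its 7287 strongest peaks. Had a promoter been defined by 250 bp in place of 500 bp, nos would not have had a promoter summit. GC over 201 bases was 56.7%, higher than at 99.4% of all thresholded summits. Weaker pooled summits inside nos lay 673 and 930 bp downstream of its start, at ranks 16823 and 13094. Both overlapped the same peaks of replicates 2 and 3 (ranks 9139 and 13608) and none of replicate 1.

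For gcl, which encodes an adaptor of a ubiquitin ligase needed to form germ cells, the thresholded peak (2R, 8723897 to 8724286, signal value 451.0, rank 3027) lay 166 bp upstream of its start. The divergent neighbour CG14767 starts 419 bp upstream of gcl, which put the summit between both starts, 253 bp from the neighbour's. Replicate 3 gave the same summit base at rank 2661. Replicates 1 and 2 each resolved the region into 2 peaks instead. The stronger ones, of ranks 3766 and 3511, had summits 322 and 310 bp upstream of gcl, which is 97 and 109 bp from the CG14767 start. The weaker ones, of ranks 7683 and 6260, had summits 119 and 106 bp upstream of gcl. The pooled list held 8 further summits in the gcl window, of ranks 8537 to 28149.

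For pgc, which encodes a small protein that blocks transcription in newly formed germ cells, no list had a summit within 2 kb. The nearest pooled summit was 5932 bp away (signal value 202.6, rank 7618), with Gp150 as its nearest gene, and the nearest thresholded summit was 12692 bp away. The gene overlaps T3dh on the opposite strand, whose start lies 99 bp upstream of one of the 2 pgc starts, and that start was without a summit too. All 50-base stretches of the window were unique.

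Bam and Bgcn act as partners in stem cell daughters, and a thresholded summit was present at bgcn but not at bam. The bgcn peak (2R, 23858629 to 23858962, signal value 1311) was the strongest of the 8, at rank 558, and its summit lay 142 bp inside the gene, in the 5' UTR. Replicates 1, 2 and 3 ranked it 786, 405 and 633, above every replicate rank of the other 7 sites. In replicates 1, 2 and 3 the summit was 142, 142 and 141 bp inside the gene, a spread of 1 bp. Of the 7128 thresholded peaks seen in all replicates, 43 (0.603%) had a spread of 1 bp or less, and the median spread was 42 bp. The nearest start site of another gene, that of the nested Pym, was 1843 bp away. A summit more than 100 bp inside the gene was found at 6.13% of the 3326 protein-coding genes with a thresholded promoter summit, whose median position was -131 bp, upstream. GC at the bgcn summit was 45.8%, higher than at 90.2% of thresholded summits. Within bgcn, Pym, which encodes a regulator of the exon junction complex, had a weaker pooled summit 51 bp upstream of its start (signal value 181.3, rank 8514).

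At bam, which encodes the main differentiation factor, the pooled list had a summit 503 bp upstream of the start, 3 bp too far to count as a promoter summit, with a signal value of 114.5 and rank 13601. The overlapping peaks in replicates 1, 2 and 3 lay 487, 551 and 688 bp upstream, at ranks 8870, 12053 and 18957. Replicates 2 and 3 also had weak peaks 192 bp inside and 25 bp upstream of the start, at ranks 20435 and 26910. The nearest thresholded summit, 2425 bp from bam, was the strong peak at the ribosomal protein gene RpS27 (signal value 2094, rank 222, 20 bp from its start), just outside the window.

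**Figure D3:**
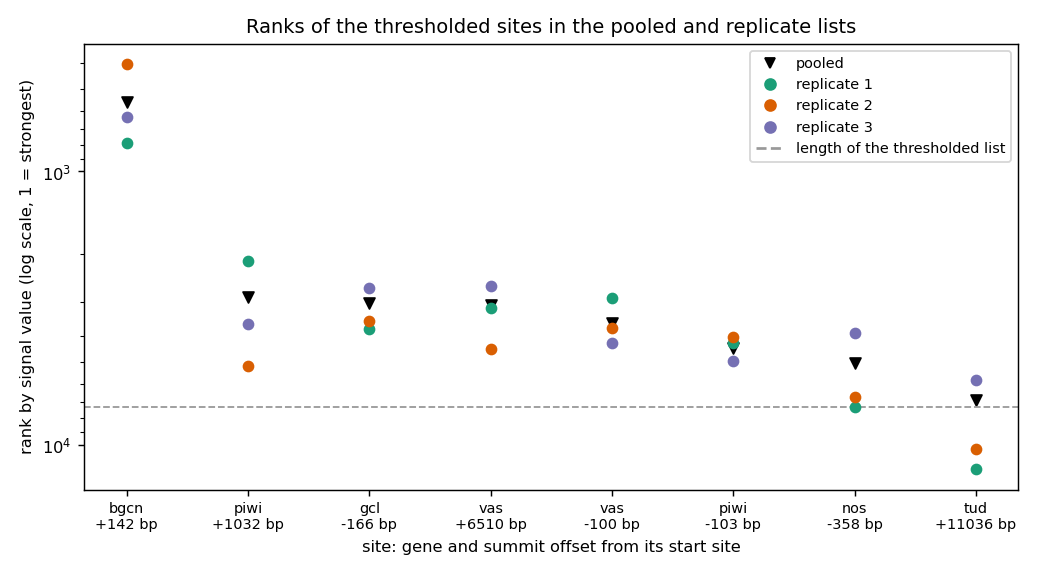
Points give the rank by signal value (log scale, 1 is strongest) of the 8 thresholded sites in the pooled list (triangles) and in replicates 1 to 3 (coloured), ordered by pooled rank and named by gene and offset from its start. The bgcn site stands above all others in every replicate, and the tud site falls below the dashed line at rank 7287 in replicates 1 and 2.

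Ordered by their strongest promoter summit in the pooled list, bgcn (rank 558) was followed by gcl (3027), vas (3589), piwi (4407) and nos (5038). The vas promoter, whose start is shared with solo, ranked above the piwi promoter within each of the 3 replicates. In replicate 1 the piwi rank is that of a summit nearer the CG12253 start, 73 bp from it. For gcl and vas the order differed between replicates, with vas above gcl in replicate 1 and below it in replicates 2 and 3. In replicates 1 and 2 the gcl rank is that of the peak nearer the CG14767 start. By the weaker peaks nearer gcl, of ranks 7683 and 6260, vas ranked above gcl in both. For piwi and nos the order differed too, with piwi above nos in replicates 1 and 2 and below it in replicate 3. The spread of summits between replicates ran from 1 bp at bgcn to 210 bp at the piwi promoter, with a median of 68.5 bp over the 8 sites. For all thresholded peaks the quartiles were 22.0 and 72.3 bp. The piwi promoter, gcl and nos sites were above the upper quartile.

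Of the 8 elements searched, the BEAF-32 core, the GAGA factor site, the TATA box and the E-box each occurred within 100 bp of 2 of the 8 summits. Motif 1, which 1.77% of thresholded peaks and 6.76% of 5' ends of protein-coding genes carried, occurred at gcl alone. The replication-related element, the Zelda site and the nuclear receptor site occurred at none of the 8, and were in 2.66%, 0.782% and 3.87% of all thresholded peaks and in 7.84%, 1.03% and 3.29% of the 5' ends. These counts moved with the width searched. Motif 1 occurred at none of the 8 within 50 bp and at 2, gcl and the piwi promoter, within 150 bp, and the BEAF-32 core at 1 within 50 bp and at 4 within 150 bp. No element was common to the 8 sites at any of the 3 widths.

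Further genes of the same pathways were counted from 4 lists with 51 genes in all. A thresholded promoter summit was present at 16 of them (31.4%), against the 23.9% of all protein-coding genes given above. With each replicate cut to 7287 peaks as above, the share was 33.3% ± 3.40 (SD, n = 3), against 24.4% ± 0.511 of all protein-coding genes. In the thresholded list the share was highest for genes that localize osk mRNA or control its translation, with 7 of 12 (58.3%). In replicate 1 this list tied with that of nos partners and primordial germ cells, at 6 of 12 (50%) each. The 3 strongest in the osk list were orb (signal value 1501), tral (923.8) and par-1 (418.6). They encode an RNA-binding protein of cytoplasmic polyadenylation, a component of ribonucleoprotein particles and a polarity kinase. Of the 7 summits in this list, 5 had a start site of another gene within 500 bp. These 3 were among them, at 92 bp for orb (Cdc16), 81 bp for tral (sti) and 408 bp for par-1 (mei-W68). From their own starts the summits lay at -253 bp for orb, -163 bp for tral and 408 bp for par-1. The neighbour's start was therefore nearer at orb and tral and equally near at par-1.

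Partners of nos and genes of primordial germ cells had 5 of 12 (41.7%), led by wun (1547), a lipid phosphatase that guides germ cell migration, vls (1404), a cofactor of the arginine methyltransferase that modifies PIWI proteins, and smg (856.6), a repressor of nos mRNA. The summits lay at 410 bp for wun, -74 bp for vls and -137 bp for smg. None of these 5 genes had a start site of another gene within 500 bp of its summit. The same share over all thresholded promoter summits is not given here. Neither this count nor that of the osk list therefore has a background beside it. Genes of the piRNA pathway had 2 of 19 (10.5%), papi (1928) and the helicase gene spn-E (283.9). The summit of papi, which encodes a Tudor domain protein, lay at -301 bp. That of spn-E lay at -155 bp, and a start of ND-23 was nearer, at 147 bp. In the pooled list 10 of those 19 (52.6%) had a promoter summit, near the 46.8% of all protein-coding genes. Genes of germline stem cell differentiation had 2 of 8 (25%), the splicing regulator gene Sxl (684.3) and twin (306.8), a deadenylase gene. The Sxl summit lay at 437 bp, downstream of its start. At twin the summit lay at -121 bp, with a start of cav 156 bp from it. Pooled promoter summits were at 83.3% of the osk list, 75% of the nos list, 62.5% of the stem cell list and 66.7% of all 51 genes. Each of the 16 thresholded peaks overlapped a peak in all 3 replicate lists, as did 97.8% of all thresholded peaks. The lists are short, and no test was run on them.

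**Figure D4:**
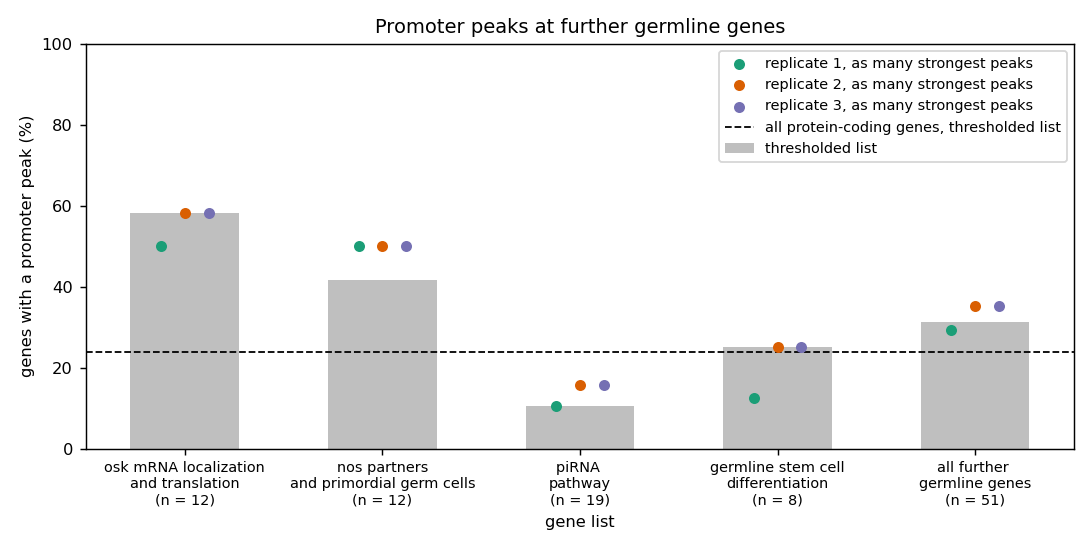
Grey bars give the percentage of each gene list with a thresholded promoter summit, dots the percentage for the 7287 strongest peaks of replicates 1 to 3, and the dashed line the 23.9% of all protein-coding genes. The osk list (7 of 12 genes) stands highest and the piRNA list (2 of 19) lowest, and in every replicate the order of these 2 lists is the same.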

How the data were processed

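CG17359-GFP ChIP-seq was measured in whole embryos, 3 replicates of 1 group. Per the text files deposited with the samples, the authors called peaks per replicate and on all 3 replicates combined, always against 1 shared control, and derived the thresholded list from those 4 lists. The assembly is dm6, per the labels. The sources used here do not name an aligner, a peak caller or an IDR cutoff. Signal values and -log10 q values are the authors' own, as deposited. Signal was used to rank peaks within a list, and q was not used. Chromatin was sonicated to 200 to 800 bp, per the labels, which limits how finely a summit can be placed.

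Summits were the peak start plus the deposited offset, written 1-based. Gene models came from Ensembl release 115, without transposable elements, and bases from RefSeq's Release 6 assembly, whose arms (same names) contained every peak. Overlap meant 1 bp or more. Counting was first tested on simulated summits. Members, gene lists and elements were chosen with earlier results of these data known, so no tests were run. All members, every gene nearest a described summit and up to 3 genes per further list, those with the strongest promoter peaks, are named. GC and element shares were computed with Python 3.11.15, numpy 2.4.6 and pandas 2.3.3.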

Additional observations from a re-analysis of the deposited data

How the results depend on the processing

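The count of genes with a thresholded summit in the window was 6, and 3 when only the gene body was taken. It was 9 with 5 kb either side, which then reached the peaks at RpL9, RpS27 and pyd. A wider window takes in more summits at any gene. Shares of all protein-coding genes are not given beside the recounts in this section. The recounts therefore show only how the counts moved. The 5 genes with a promoter summit became 3 in the list restricted to its stronger peaks, those above the median signal value. The 8 genes with a summit in all 3 replicate lists became 4 in the gene body alone and 5 with the strongest peaks of each replicate. The 5 thresholded summits within 500 bp of another gene's start became 1 in gene bodies alone, 14 with 5 kb either side, 3 with promoters of 250 bp, 3 in the stronger peaks, 3 with gene 5' ends as the sole start sites and 18 in the whole pooled list. The 16 further germline genes became 8 in the stronger peaks and 34 in the whole pooled list. They became 11 with promoters of 250 bp and 22 with promoters of 1000 bp. Leaving out each replicate in turn gave 5 to 6 genes in the window, 5 to 6 with a promoter summit, 5 to 7 summits near another gene's start and 14 to 15 further genes. The thresholded list was derived from all 3 replicates, so these leave-out counts are not that list remade by the IDR procedure. The promoter count of 6 came without replicate 1, when tud was added. Of these recounts, 27 stayed within 1.5 times the reported count and 12 did not. Of the values for elements (held to 1.5 times) and for the percentile rank of single sites (held to 1 SD between replicates), 30 stayed and 10 did not. The latter were the ranks of gcl, nos and tud without replicate 3 and 7 element counts, among them the BEAF-32 core and Motif 1 at both other search widths. Within 50 bp the GAGA factor site, the TATA box and the E-box each fell from 2 sites to 1. The lists have no read depth and stop at a fixed number of peaks, so a gene without a summit may still have weak enrichment.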
